A study of Mus musculus with 4 samples.

Results

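Small nucleolar RNAs, their relatives of the Cajal body and the mostly noncoding genes named as their hosts were followed in stomachs taken from E15.5 mouse embryos (E, embryonic day). Rows of the deposited gene table were taken by name: Snora, Snord, Scarna or Snhg followed by a number, and Gas5. Of 154 such rows among 51098 genes, 45 had a summed count of at least 10 over the 4 named columns and are the members described here. They are 7 Scarna genes, 15 Snora genes, 6 Snord genes and 17 host gene rows (Gas5 and the Snhg rows). The summed count chose the members, so their detection is a description and was not tested.

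The samples were stomachs of genotype Fgf9LacZ/LacZ, labelled Fgf9KO and called Fgf9_null here, and of genotype Fgf9LacZ/+, labelled control and called Fgf9_het here, with 2 samples each, numbered 2 and 3. Every sample carries the Fgf9LacZ allele, and although the titles call the Fgf9_het samples WT, no group is free of it. The labels do not say whether a sample is 1 embryo or a pool, so the p-values below measure only the spread between the deposited columns. Estimated counts summed to between 19269851 and 22713416 reads in a column, and a floor of 3 counts corresponded to 0.132 to 0.156 CPM (counts scaled so that every column has the same total). All 6 stomach markers of a list were above 1 CPM, with Cym, a gastric protease, at 4692 ± 269 CPM and Krt8 of simple epithelium at 581 ± 9.74 CPM (SD, n = 2 libraries).

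For the members, columns with the same number were nearly the same under both genotype labels. The targeted gene, Fgf9, had 133 and 131 reads in the Fgf9_null columns and 133 and 131 reads in the Fgf9_het columns, so it does not tell the labels apart. Of the 45 members, 42 in the replicate 2 columns and 40 in the replicate 3 columns had counts within 1 read of each other, and the largest differences were 4 and 3.02 reads. A chi-square comparison of the 45 members gave 6.58e-05 for each degree of freedom between the replicate 2 columns and 0.000249 between the replicate 3 columns, against 6.91 between the Fgf9_null columns of different number. The members of same-numbered columns thus differed by less than sampling noise, and each such pair of columns was counted as 1 sample, called library 2 and library 3. The likeness did not hold for every gene. Over 23675 genes summing to 10 or more, the same statistic was 4.08 and 4.29 between same-numbered columns, and 0.000805 and 0.00361 once the 4 genes with the lowest edgeR p, chosen by that difference, were set aside. These were Rn7s1, Rn7s6, Gm19220 and Gm26461. Rn7s1, a signal recognition particle RNA, had 529306 and 588969 reads in the Fgf9_null columns, against 255292 and 291630 reads in the Fgf9_het columns. Which genotype either library had cannot be told from these columns.

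Box C/D small nucleolar RNAs (Snord genes) guide ribose methylation of ribosomal RNA, with fibrillarin as the enzyme, and box H/ACA RNAs (Snora genes) guide the change of uridine to pseudouridine, with dyskerin as the enzyme. A few are needed instead to cut the ribosomal RNA precursor. The Scarna genes make scaRNAs, which carry the same boxes, gather in Cajal bodies and guide the modification of spliceosomal RNAs. In mammals most of these RNAs lie in introns and are freed when the host transcript is spliced, debranched and trimmed. Gas5 and the Snhg hosts are mostly noncoding spliced RNAs, and several are removed by nonsense-mediated decay.

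The sequences that carry the results below are shown first. They were read from GENCODE M21 transcripts on GRCm38, are given 5′ to 3′ with T for U, and have their boxes in capitals. In C/D RNAs, capitals mark TGATGA within the first 20 bases (box C) and CTGA within the last 15 bases (box D). In H/ACA RNAs they mark ACA standing 3 bases before the end.

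The Snora members with the highest level per length are the near-identical Snora73a (chr4:132352775-132352979, minus strand) and Snora73b (chr4:132352322-132352526, minus strand), both in introns of Snhg3, within the overlapping gene Rcc1.
Snora73a: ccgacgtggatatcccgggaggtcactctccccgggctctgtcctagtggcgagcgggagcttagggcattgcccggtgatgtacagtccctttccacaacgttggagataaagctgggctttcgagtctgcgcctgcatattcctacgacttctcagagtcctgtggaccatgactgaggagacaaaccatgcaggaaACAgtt
Snora73b: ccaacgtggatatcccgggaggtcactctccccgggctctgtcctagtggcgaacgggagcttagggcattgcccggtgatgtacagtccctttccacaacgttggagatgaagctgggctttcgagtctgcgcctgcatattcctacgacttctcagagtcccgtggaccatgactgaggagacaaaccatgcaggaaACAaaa
Both are 205 bases long and identical at 198 positions (96.6%). Counted from 1 at the 5′ end, with the base of Snora73a first, the differences are G3A, G54A, A111G, T164C, G203A, T204A and T205A. Reads that match both copies had to be shared out, so each row is uncertain singly.

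Scarna13 (chr12:105031075-105031349, minus strand, intron of Snhg10) and Snora78 (chr17:24719676-24719803, minus strand, intron of Snhg9) are shown because both were read far more than their hosts.
Scarna13: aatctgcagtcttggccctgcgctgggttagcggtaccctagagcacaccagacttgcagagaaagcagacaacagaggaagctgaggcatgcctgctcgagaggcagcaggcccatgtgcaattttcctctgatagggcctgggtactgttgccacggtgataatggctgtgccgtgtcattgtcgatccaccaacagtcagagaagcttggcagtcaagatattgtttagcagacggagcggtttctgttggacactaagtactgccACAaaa
Snora78: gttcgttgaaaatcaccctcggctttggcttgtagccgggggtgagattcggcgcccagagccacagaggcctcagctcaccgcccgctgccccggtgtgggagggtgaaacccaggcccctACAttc
Both end in the ACA box.

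The C/D RNAs that follow show where detection stopped. Snord17 (chr2:144265979-144266216, minus strand) lies in an intron of Snx5, and Snord22 (chr19:8725866-8725991, plus strand) in Snhg1. Snord47 (chr1:161038082-161038158, plus strand) and Snord78 (chr1:161036984-161037049, plus strand) lie in Gas5.
Snord17: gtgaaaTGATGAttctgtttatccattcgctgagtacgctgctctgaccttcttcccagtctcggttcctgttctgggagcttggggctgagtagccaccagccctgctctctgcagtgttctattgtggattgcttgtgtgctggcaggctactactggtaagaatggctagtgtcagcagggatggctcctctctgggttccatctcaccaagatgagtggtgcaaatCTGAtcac
Snord22: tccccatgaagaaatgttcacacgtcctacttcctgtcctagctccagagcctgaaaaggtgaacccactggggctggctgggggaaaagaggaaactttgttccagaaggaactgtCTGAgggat
Snord47: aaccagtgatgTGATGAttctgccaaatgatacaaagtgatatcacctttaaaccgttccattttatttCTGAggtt
Snord78: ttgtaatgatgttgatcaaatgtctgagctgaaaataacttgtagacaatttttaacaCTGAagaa
Snord17 and Snord22 were members, whereas Snord47 and Snord78 had 0 reads in both libraries. Both boxes were found in 54 of 85 named Snord sequences (63.5%) and in 0.256% of 141767 annotated transcripts. The ACA box was found in 34 of 41 named Snora sequences (82.9%) and in 2.45% of the transcripts. None of the Snora sequences held both C and D boxes and none of the Snord sequences held ACA in these windows, each searched on the transcript strand. A match describes the letters and is not evidence of a working box.

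The study set Fgf9_null against Fgf9_het stomachs, and no member passed a test of that difference. Scarna2 had 4481 and 5265 reads in the Fgf9_null columns, against 4485 and 5267 reads in the Fgf9_het columns. Gas5 had 2065 and 2562 reads in Fgf9_null, against 2068 and 2564 reads in Fgf9_het. Snord17 had 115 and 113 reads in Fgf9_null, and 115 and 113 reads in Fgf9_het. For each of these the groups overlapped throughout. edgeR's quasi-likelihood test, on rounded counts, kept 33 of the 45 members after its filter on low counts and called 0 of them at an adjusted p under 0.05 (Benjamini-Hochberg over 19987 genes), where 0% of all genes tested were called. The largest absolute log2 fold of a tested member was 0.0037, and the edgeR adjusted p was 1 for each. At an unadjusted p under 0.05, edgeR had 0 of the 33 members, against 4 genes (0.02%) overall. DESeq2 called 0 of the 33, against 3 genes (0.015%), and limma-voom called 0 of the 33, against 0% of all genes. The median log2 fold was 0.00031 over the 33 members and 0.00030 over all genes tested. As both columns of a number hold nearly the same values for the members, these figures set each library against what is nearly a copy of it, and no effect of Fgf9 on the members can be read from them.

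Read as 2 libraries, the columns describe how much of each RNA was read. Levels below are mean CPM ± SD over n = 2 libraries, and genes are compared by CPM per kb of annotated exon. For RNAs near the size of a sequenced fragment, division by the full length understates the level, and no correction was made. As in any bulk sample, fewer cells of a type and less RNA per cell cannot be told apart.

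The scaRNAs stood highest among the small RNA classes. The 7 Scarna members together made up 344 ± 2.98 CPM, somewhat less than the 17 host rows, which had 353.0 CPM in library 2, against 356 CPM in library 3. The 15 Snora members reached 58.9 ± 16.1 CPM. The 6 Snord members had 8.72 CPM in library 2, against 8.74 CPM in library 3, on 169 and 197 reads. The near-equal sums hold member ratios, library 2 over library 3, on both sides of 1, such as 1.18 for Snord17 and 0.586 for Snord15b. They do not measure precision. Scarna2, Scarna10 and Scarna13 alone held 80.4% of the CPM of the 28 small RNA members in library 2 and 84.7% in library 3.

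**Figure D1:**
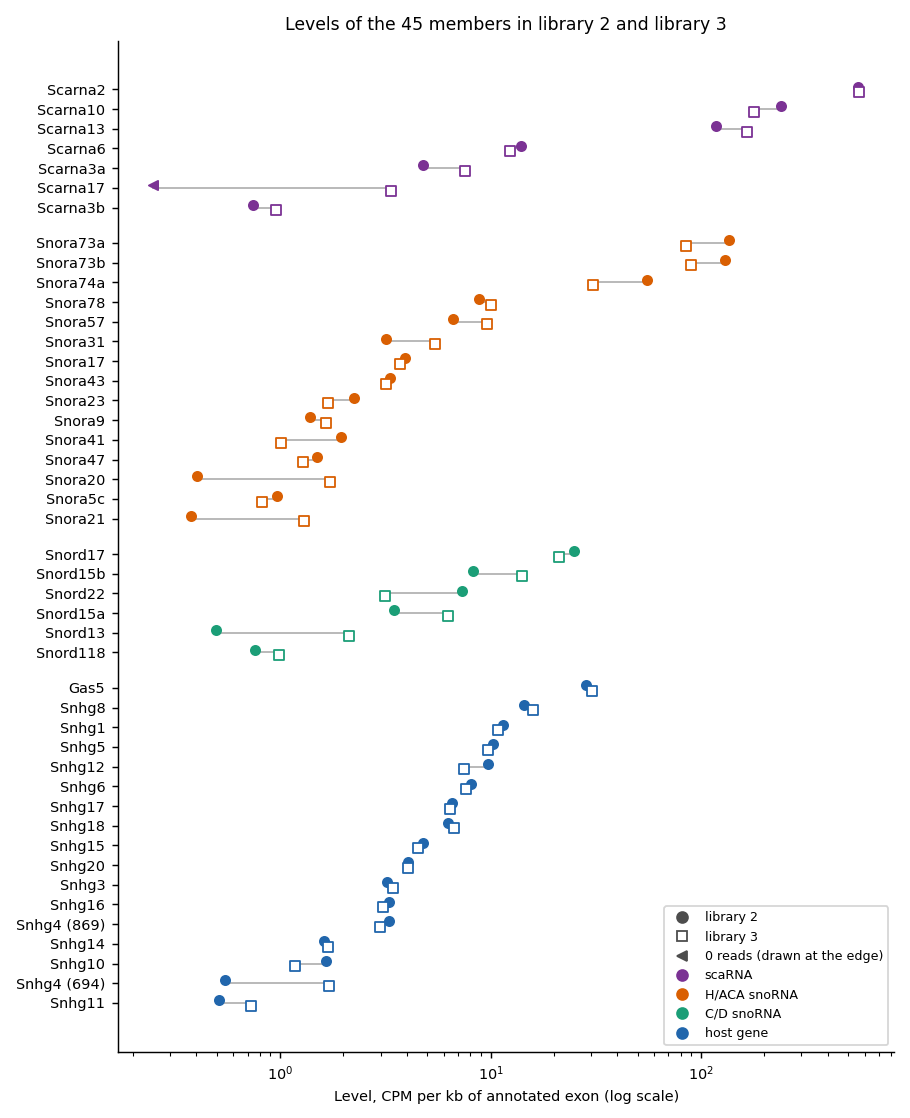
Level of each of the 45 members in CPM per kb of annotated exon (log axis), in library 2 and library 3, grouped by class and sorted by mean level. Scarna2 has the highest mean at 561 CPM per kb, and Gas5 leads the host genes at 29.3 CPM per kb.

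Among the scaRNAs, Scarna2 (chr3:108554338-108554751, minus strand, 414 bases), a guide for methylation of a spliceosomal RNA, had 231 CPM in library 2, against 233 CPM in library 3, or 561 ± 3.89 CPM per kb. It is annotated in no host gene. Scarna10 (chr6:125186359-125186683, minus strand), in an intron of the condensin subunit gene Ncapd2, had 77.9 and 58.0 CPM in libraries 2 and 3, or 209 ± 43.2 CPM per kb. Scarna13 had 627 and 1025 reads in Fgf9_null and the same in Fgf9_het, or 141 ± 33.7 CPM per kb. Scarna2 lay above both by more than the spread between libraries. The gap between Scarna10 and Scarna13 was smaller than their SDs added together, although Scarna10 was the higher per kb in each library. Scarna6, in the autophagy gene Atg16l1, reached 13.2 ± 1.15 CPM per kb, and Scarna3a, in the ubiquitin ligase gene Cop1, 6.19 ± 1.99 CPM per kb. Scarna17 had 0 reads in library 2 and 6 in library 3, and Scarna3b had 2 and 3.

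Among the H/ACA RNAs, Snora73a and Snora73b, the U17 RNAs that act in cutting the ribosomal RNA precursor, stood at 110 ± 35.7 and 110 ± 29.2 CPM per kb. Snora73a had 539 and 394 reads in the Fgf9_null columns and, to the nearest read, the same in the Fgf9_het columns. As a pair they had 1059 reads in library 2 and 807 reads in library 3. Snora74a, in Snhg4 on chromosome 18, followed at 43.2 ± 17.5 CPM per kb. Its whole sequence is also part of an annotated Snhg4 transcript, so its count is uncertain. Snora78 stood at 9.45 ± 0.835 CPM per kb, Snora57 at 8.10 ± 2.10 and Snora31, in Tpt1, at 4.31 ± 1.61. The library values of Snora78 and Snora57 overlapped, while Snora31 lay below both in each library. The other 9 Snora members had at most 11 reads in a library.

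Among the named Snord rows, Snord17, a guide for the large ribosomal RNA and the longest of them, stood highest. It had 5.93 CPM in library 2, against 5.01 CPM in library 3, a level of 22.97 ± 2.73 CPM per kb. The U3 RNAs, also C/D RNAs, carry other names in the table and are not members. Of these, Rnu3b2 had a summed count of 1168, above the 456 of Snord17. A Rnu3a row of 214 bases had 414, while a Rnu3a row of 213 bases and Rnu3b3 had 0. Snord15b and Snord15a, in introns of the ribosomal protein gene Rps3, reached 11.2 ± 4.13 and 4.88 ± 1.98 CPM per kb. Snord22 had 17.9 reads in library 2 and 8.93 in library 3, and its sequence, like that of Snord15b, is also part of a host transcript. The U13 RNA Snord13 had 1 and 5 reads. Snord118, the U8 RNA needed to mature the RNAs of the large subunit, had 2 and 3 reads, with exact Poisson 95% intervals of 0.242 to 7.22 and 0.619 to 8.77 reads that cover counting error only. Of the U14 genes, which act in maturing the small subunit's RNA, Snord14a, Snord14c and Snord14d had 0 reads and Snord14e a summed count of 4.47. U13, U8 and U14 were thus at or near the floor. The sequence of Snord14a is also part of an Rps13 transcript, and those of Snord14c, Snord14d and Snord14e part of Hspa8 transcripts. Reads of U14 could have been assigned to those genes, so its level cannot be told from these rows.

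The summed count takes each library under both labels, so about 5 reads over both libraries met the minimum of 10. Just inside it were Snora5c with a sum of 10.2 and Snora21, Snord118 and Scarna3b with 10 each. Just outside were Snora61 with 8.54 and Snord55 and Snord104 with 8 each. In all, 86 of the 154 rows had 0 reads, and 23 more had reads but fell short.

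Longer small RNAs were read more often than shorter ones. Of 73 Snord rows shorter than 100 bases, 0 were members and 63 had no read. Of 7 Snord rows of 100 to 124 bases 1 was a member, while 4 of 4 from 125 to 149 bases and the 1 row of at least 200 bases were. The Snora rows gave 11 members of 35 at 125 to 149 bases, 2 of 3 at 150 to 199 bases and 2 of 2 at 200 bases or more. The 4 Scarna rows of 200 bases or more were all members, and the 79-base Scarna17 was the only member under 100 bases. Across the 28 small RNA members, Spearman's rho of length was 0.72 with CPM and 0.692 with CPM per kb. Over all 135 named small RNA rows, which the summed count did not choose, rho of length with CPM was 0.582. These are descriptions across genes that share the same libraries.

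Annotated snoRNA and scaRNA genes outside the names gave a like order at the short end. The minimum was reached by 0 of 257 such rows under 100 bases, 4 of 203 from 100 to 124 bases (1.97%) and 53 of 771 from 125 to 149 bases (6.87%). It was reached by 34.8% of 23 rows from 150 to 199 bases and 26.9% of 26 rows of 200 bases or more, so the share did not rise further at the end. The median length was 80.0 bases for the named Snord rows, 133 for Snora and 140 for Scarna rows, and class and length cannot be told apart under 100 bases.

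**Figure D2:**
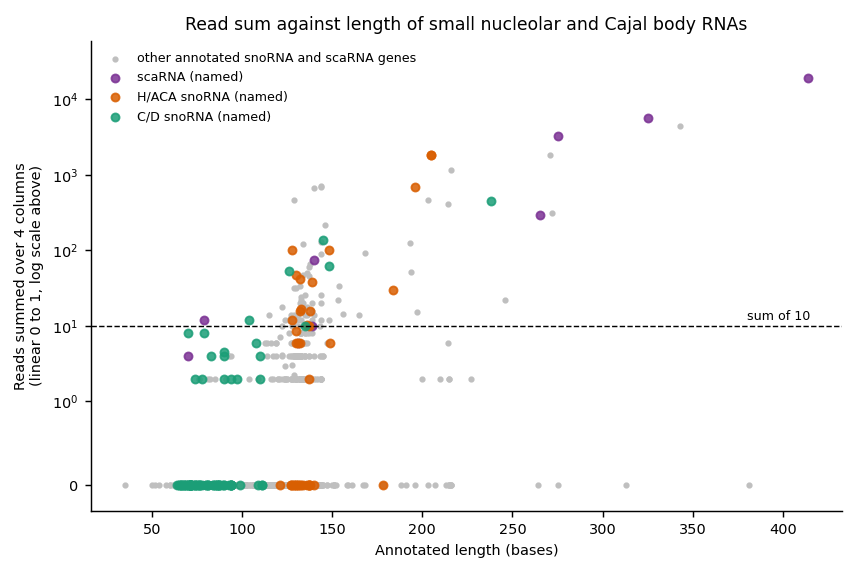
Summed count over the 4 columns against annotated length in bases for 135 named small RNA rows, coloured by class, and 1280 other annotated snoRNA and scaRNA genes in grey. The 7 named rows of 200 bases or more all lie above the minimum of 10, against 1 of 75 named rows under 100 bases.

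Shared sequence also moved with detection. The whole sequence lay inside a transcript of another gene for 4 of the 28 members and for 53 of the 107 named small RNA rows below the minimum, where reads could have been assigned to that gene. Among the 78 rows whose sequence was in no other transcript, the members were 1 of 40 under 100 bases, 14 of 23 from 125 to 149 bases and 7 of 7 of 200 bases or more. RNA was purified with an RNeasy kit and primed with random hexamers, per the labels' protocols. The part of these steps in the missing short RNAs was not tested.

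The host genes were read well where their guests were not. Gas5, a growth-arrest transcript, had 110 ± 4.99 CPM, or 29.3 CPM per kb, but its 10 guests of 60 to 84 bases, Snord47 and Snord78 among them, all had 0 reads. All 10 also lie within an exon of some annotated Gas5 transcript. Snhg1 had 33.1 ± 1.17 CPM, and of its 8 guests 1 had reads, Snord22. Snhg12, at 20.7 ± 3.90 CPM, had reads for 1 of 5 guests, Snora61. Snhg14, the long transcript of the mouse region that matches the human Prader-Willi region, had 43.2 ± 1.45 CPM. Of its 208 annotated guests only 85, 69 to 94 bases long, had a row in the table. Of these 1 had reads, with a summed count of 4. The 4 Snord116 rows named in the table were at 0. The sequence of 1 of them, Snord116l16, is also found in other Snord116 genes without a row and in an Snhg14 transcript. Snhg17 had 45.9 ± 0.80 CPM and its 3 guests 0 reads, and Snhg8 had 12.9 ± 0.945 CPM and its guest 0 reads. As in Gas5, all 8 guests of Snhg1, all 5 of Snhg12, all 3 of Snhg17 and the 1 of Snhg8 lie within an exon of some host transcript. Reads of such guests could have been assigned to the host. Over the 17 host rows, 9 of 127 distinct guests in the table had reads.

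Per kb of all annotated exons together, Gas5 led the hosts, followed by Snhg8 at 15.2 ± 1.11, Snhg1 at 11.1 ± 0.392 and Snhg5 at 10.02 ± 0.368 CPM per kb. Snhg12, Snhg6, Snhg17 and Snhg18 lay between 8.61 and 6.48 CPM per kb. Snhg15, Snhg20, Snhg3 and Snhg16 lay between 4.63 and 3.18 CPM per kb. Snhg4 (ENSMUSG00000117869) stood at 3.14 ± 0.227, Snhg14 at 1.65 ± 0.0556, Snhg10 at 1.41 ± 0.342 and the other Snhg4 row at 1.12 ± 0.815 CPM per kb. In GENCODE M21 both Snhg4 rows and the Snhg16 row carry other symbols, and the second Snhg4 row and Snhg11 are annotated as protein coding. The order depends on the length used. Divided, as an alternative chosen after seeing the data, by the longest transcript alone, Snhg4 (ENSMUSG00000117869) stood at 8.74 and Snhg14 at 6.29 CPM per kb, and Snhg5 at 14.2 and Snhg12 at 13.5 passed Snhg1 at 12.1, while Gas5 at 43.05 and Snhg8 at 16.7 still led. The lowest by either length was Snhg11, at 0.621 ± 0.152 CPM per kb of all exons, beside neuron markers that summed to 177 CPM in library 2, against 179 CPM in library 3, with none of 5 at 0. Its relation to those cells was not tested.

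Of the 28 small RNA members, 14 lie in 1 protein-coding host, 4 in 1 noncoding host, 3 in overlapping hosts and 7 in no annotated host. The 3 are Snora73a and Snora73b, in both Snhg3 and the protein-coding Rcc1, and Snora74a, in both Snhg4 rows. Per kb of all annotated exons, 9 of the 21 with a host stood above every host they lie in and 12 below. With Snhg3 and the Snhg4 row ENSMUSG00000117869 taken as hosts, the median ratio was 0.327. Scarna13 was at 70.9 times the level of Snhg10 in library 2 and 141 times in library 3, where Snhg10 had 17 and 14 reads. Snora73a was at 33.3 times the level of Snhg3 and 13.3 times that of Rcc1, and Snora73b at 33.1 and 13.3 times. With the longest transcript as the length of Snhg3, the ratios to it were 19.6 and 19.5. Snora74a was at 13.8 times the level of the Snhg4 row ENSMUSG00000117869 (4.94 times by its longest transcript). Over the row ENSMUSG00000117694 it was at 101.3 times in library 2 and 18.1 times in library 3. Snora78 had 22 and 29 reads while Snhg9 had 0 and 1, too few for a ratio. At the other end, Snora31 reached 0.0116 of the level of Tpt1. Snora21, on 1 and 4 reads, was at 0.00287 of the ribosomal protein gene Rpl23 in library 2 and 0.00942 in library 3. Spearman's rho between small RNA and host level was -0.502 across the 21 genes with these hosts, a description. The count of 9, the median ratio and rho all include Snora78 with Snhg9. Snora73a and Snora73b share Snhg3, Snord15a and Snord15b share Rps3, and the summed count chose the small RNAs. No relation between guest and host level is read from rho.

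**Figure D3:**
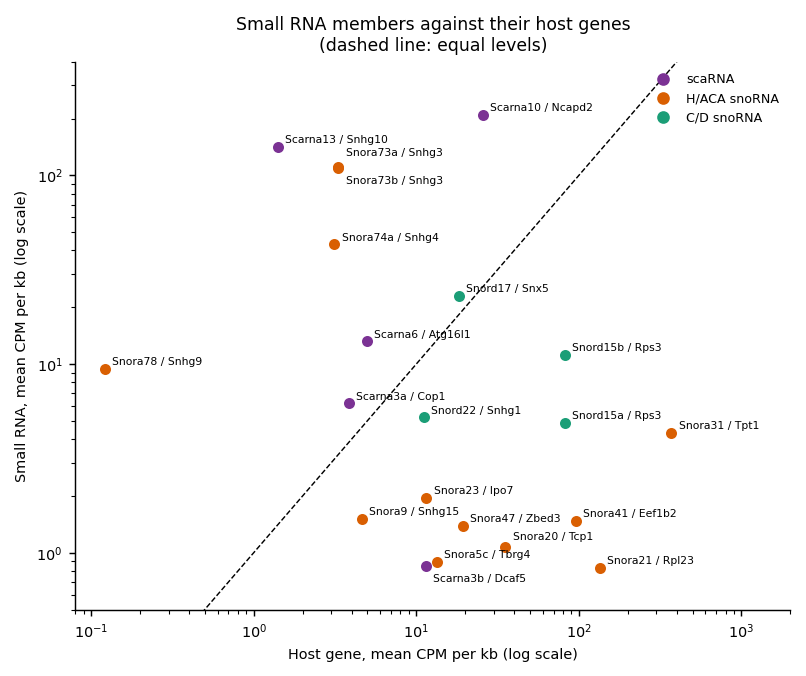
Mean CPM per kb of each small RNA member against that of its host gene (both log axes), coloured by class, with equal levels on the dashed line. Members in overlapping hosts are drawn against Snhg3 or the Snhg4 row ENSMUSG00000117869. Scarna13 lies far above the line and Snora21 far below it.

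Between the libraries, 26 members had at least 1 CPM in both. With 1 sample on each side there is no test, and a 1.5-fold difference is the size used. Snora73a had 27.8 CPM in library 2, against 17.5 CPM in library 3, 1.59-fold (95% counting interval 1.39 to 1.82). Snora74a had 10.9 CPM in library 2, against 6.03 CPM in library 3, 1.804-fold (1.45 to 2.26). These were the 2 of 26 higher in library 2 by over 1.5-fold, where 2.52% of all genes were. Higher in library 3 by that size were 2 of 26, where 1.36% of all genes were. They were Snord15b, with 1.20 CPM in library 2, against 2.05 CPM in library 3, and the Snhg4 row ENSMUSG00000117694, with 1.19 CPM in library 2, against 3.69 CPM in library 3. Snord15b rested on 23.3 and 46.2 reads, a ratio of 0.586 (0.336 to 0.979), and its sequence is also part of an Rps3 transcript. The median ratio, library 2 over library 3, was 1.04 over the 26 members and 1.01 over all genes at that level. The counting interval left out 1 for 10 of the 26, among them Snhg12 at 1.31 (1.14 to 1.498), Snhg11 at 0.705 (0.533 to 0.931) and Gas5 at 0.938 (0.885 to 0.994). The same count was not made over all genes, so the 10 of 26 is not read as particular to the members. The interval says nothing of variation between embryos.

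Overlapping rows were also summed. Both Snhg4 rows and Snora74a together had 27.5 CPM in library 2, against 23.6 CPM in library 3, a ratio of 1.16 (1.03 to 1.31). The larger Snhg4 row, at a mean of 14.6 CPM, weighs most in that sum. How reads were shared out between these rows was not tested. The Snora73 pair kept a ratio of 1.53 (1.39 to 1.68), with 54.6 CPM in library 2, against 35.8 CPM in library 3, while Snhg3 had 3.16 CPM in library 2, against 3.38 CPM in library 3, and Rcc1 31.3 CPM in library 2, against 32.4 CPM in library 3. Scarna10 had a ratio of 1.34 (1.25 to 1.45) and Scarna13 of 0.712 (0.643 to 0.787), in opposite directions. Squamous markers of the forestomach summed to 511 CPM in library 2, against 281 CPM in library 3, higher in library 2 for 5 of 5 with none at 0. Liver markers summed to 39.1 CPM in library 2, against 63.4 CPM in library 3, higher in library 2 for 0 of 5 with none at 0. Erythroid markers summed to 806 CPM in library 2, against 1008 CPM in library 3, and skeletal muscle markers to 14.5 CPM in library 2, against 11.01 CPM in library 3, where Myod1 was at 0. Their part in the ratios was not tested.

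**Figure D4:**
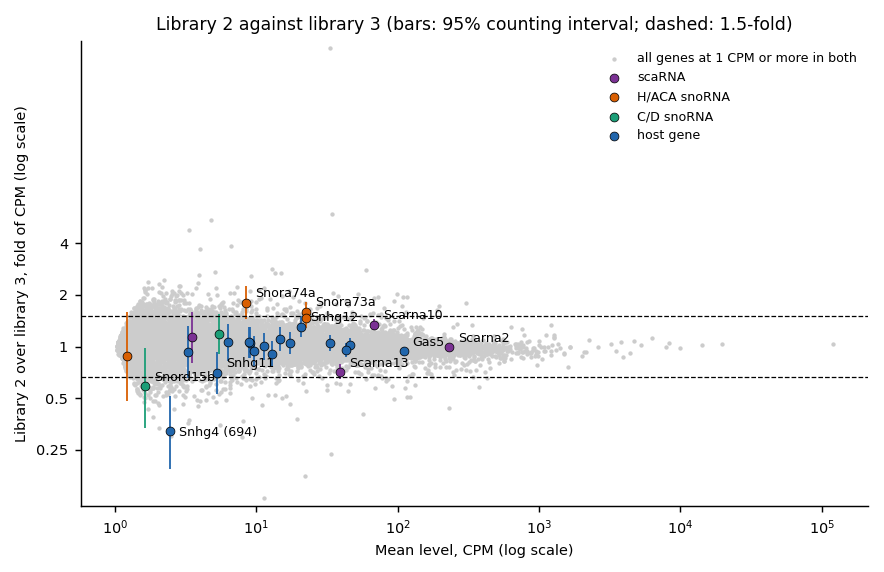
Ratio of library 2 over library 3 (log axis) against mean CPM (log axis) for the members and, in grey, all genes with at least 1 CPM in both libraries. Most members lie within 1.5-fold, with Snora74a and Snora73a above and Snord15b and a Snhg4 row below.

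The protein partners were present and none was called by edgeR between Fgf9_null and Fgf9_het, where 0% of all 19987 genes tested were called. Same-numbered columns were nearly the same under both labels, so no effect of Fgf9 on the genes below can be read from this. The 4 core proteins of C/D particles summed to 256 CPM in library 2, against 272 CPM in library 3, with Nop56 at 83.6 and the methylase Fbl at 62.6 CPM. The 4 of H/ACA particles summed to 89.3 CPM in library 2, against 92.9 CPM in library 3, with the pseudouridine synthase Dkc1 at 35.4 CPM. Assembly factors (10 genes), Cajal body factors (7), intron release and trimming enzymes (8), U3 processome proteins (9), nonsense-mediated decay factors (8) and imprinted snoRNA loci (6) also gave 0 calls. None of these lists held a gene past 1.5-fold between the libraries, where 3.88% of all genes were.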

How the data were processed

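Stomach RNA of 4 samples was treated with RNase H to remove ribosomal RNA and read in pairs, per the labels' protocols. Listed in the submitters' processing notes, with no role or order, are Salmon 1.8.0, Trimmomatic 0.33, FastQC 0.10 plus edgeR, and as builds mm10 and GRCm38. The authors deposited estimated counts per gene, not scaled to depth, and 28.5% to 29.1% of values were not whole. Columns were matched to samples by title. A further 2 columns without a name were not used. No source used here says whether each name stands over its own column.

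The rounded counts went into edgeR's quasi-likelihood test (version 4.0.16, R 4.3.3) with TMM factors and filterByExpr, with DESeq2 1.42.0 and limma 3.58.1 as alternatives. The procedure was tested on simulated data with independent columns, which says nothing of how it behaves on columns that are nearly copies. Replicate numbers were not shown by the labels to mark a shared animal or day, but deviations of same-numbered columns correlated at 0.999. CPM used each column's total, a library being the mean of its same-numbered columns. Annotation was GENCODE M21, which held 50870 of the 51098 genes. Intervals are exact, at 95%, and cover counting error only. Named genes were the hosts, the highest of each class per kb, those with the largest ratios, U8, U13, U14, U17 and rows beside the minimum. Members and lists were chosen with earlier results of these data known.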

Additional observations from a re-analysis of the deposited data

How the results depend on the processing

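No member was called between Fgf9_null and Fgf9_het under any of the alternatives tried (RLE factors, no filter, a 1 CPM filter, DESeq2, limma-voom, a replicate block, and leaving out each column), and 323 of 323 recomputed member values kept their side of the threshold. Over all genes, the count of 0 became 3 with DESeq2, 6 with the replicate block, and 1 to 2 with a column left out. With a column left out, 1 library stands alone in a group, and the largest absolute log2 fold of a member was 1.07. With all columns kept it was 0.0039, as each library was set against nearly a copy of itself. The lack of called members was thus set beforehand by the columns and is no support for an absence of effect. The summed level of Snord members was 8.67 CPM from the Fgf9_null columns alone, 8.78 CPM from the Fgf9_het columns alone and 10.5 CPM with structured RNAs left out of the totals. The last setting gave 414 CPM for Scarna members and 427 CPM for hosts. The hosts had 352 CPM from the Fgf9_null columns and 357 CPM from the Fgf9_het columns. These gaps between labels follow the column totals, 19537211 and 22713416 in Fgf9_null, against 19269851 and 22425865 in Fgf9_het. The counts of a member differed by at most 4 reads between same-numbered columns. From 1 library at a time, the Snora members summed to 47.5 to 70.3 CPM, the Snord members to 8.72 to 8.74 CPM, the Scarna members to 342 to 346 CPM and the hosts to 353.0 to 356 CPM. The narrow Snord range holds member ratios in opposite directions and is not a measure of precision. At 2-fold, 0 members were higher in library 2 and 1 in library 3. With at least 50 reads in each library, 0 were higher in library 3 by over 1.5-fold, while Snora73a and Snora74a were still higher in library 2. Shares of all genes at these settings were not computed, so the counts are not read as particular to the members. The number of members was 60 at a minimum of 4, 33 at 40, and 31 at 10 in every column. Depth leaves RNAs under 3 counts unmeasured.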
